A study of Mus musculus with 6 samples.

Results

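Retinas of light-exposed, minocycline-treated mice were compared with retinas of unexposed mice, to see which transcripts still differed from the unexposed state and which of them came with tissue outside the neural retina. The comparison used 4 of the 6 RNA-seq libraries, 2 per group, and all 14181 genes that passed a filter on low counts, of 23420 genes in the table. By the sample labels, the control retinas came from CD1 mice without treatment. The other retinas came from CD1 mice kept under 10000 lux for 1 h, injected intraperitoneally with 45 mg/kg minocycline daily for 4 days and examined 4 days after the light. The methods of the study instead describe albino BALB/cJ mice, adult and of both sexes, a brighter light and injections that began a day before it. They do not say whether the controls of the sequencing received the NaCl solvent. No library came from mice given minocycline without light, so effects of light and of minocycline cannot be told apart here. The 2 remaining libraries, from light-exposed mice without minocycline, are given beside the results as values only. They share the control libraries with this comparison.

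As background, bright light damages rods of albino mice, and microglia, the resident macrophages of the retina, then gather in the outer retina while Müller glia switch on stress genes. Minocycline is a tetracycline antibiotic that dampens microglial reactivity. A dissected retina can carry small pieces of its neighbours: the pigment epithelium behind it, the ciliary body and iris with their pigmented epithelia and smooth muscle in front of it, and lens or cornea. The corneal epithelium is a stratified epithelium held together by desmosomes and filled with its own keratins. Albino mice carry a mutated tyrosinase gene and make no melanin, although their pigment cells still transcribe the melanin genes.

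Total counts were 15205930 and 15246937 in control 1 and 2, and 22856922 and 19629429 in the minocycline libraries, which share a column header and are called minocycline A and B. Levels are given as CPM, counts scaled to a TMM-adjusted library size. The limit for taking a gene as undetected was set at 3 counts, which correspond to 0.131 to 0.213 CPM in these 4 libraries. This limit covers counting error only. Xist, which silences an X chromosome in females, had 77778 counts in control 1 and 25 to 27 in the other 3 libraries, and the summed CPM of 4 Y-linked genes was 0.782 in control 1 and 390 to 905.5 in the others. Leaving out control 1 therefore leaves libraries of 1 sex, and results that change without it are given below. Whether each library is 1 mouse is not stated, so p-values measure the spread between these libraries.

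In edgeR's quasi-likelihood test, 19 genes were higher with light plus minocycline when both an adjusted p below 0.05 and a 4-fold difference (log2 fold change 2) were asked for, which is 0.134% of the tested genes, and 0 (0.0%) were lower. At the adjusted p alone, 23 genes (0.162%) were higher and 0 (0.0%) lower. At an unadjusted p under 0.05, 764 genes (5.39%) were higher and 230 (1.62%) lower, and DESeq2 without shrinkage placed 1 gene past both thresholds in the lower direction, Xist. The 2 minocycline libraries lay above both controls for 2253 genes (15.9%) and below both for 3407 genes (24%). The median log2 fold change of all tested genes was 0.02, and its quartiles were -0.16 and 0.24. At least 4-fold differences were fitted upwards for 187 genes and downwards for 3. More genes thus lay below the controls than above them, whereas differences of at least 4-fold were nearly all upwards. Among the tested genes, 55 had 3 counts or fewer in both controls and passed the filter only through the minocycline libraries. Such genes could be fitted upwards only, and many of the 19 were among them. The adjusted p-values depended on the controls: 3 genes were called without control 1 and 7 without control 2, and 1 of the 19 was among them each time although all 19 were still fitted at least 4-fold higher, whereas 98 and 276 genes were called without minocycline B and A, with all 19 among them. When all 6 libraries shared 1 edgeR fit, 0 genes passed, all 19 were fitted at least 4-fold higher, the smallest adjusted p was 0.0519, and 1248 genes had an unadjusted p under 0.05.

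**Figure D1:**
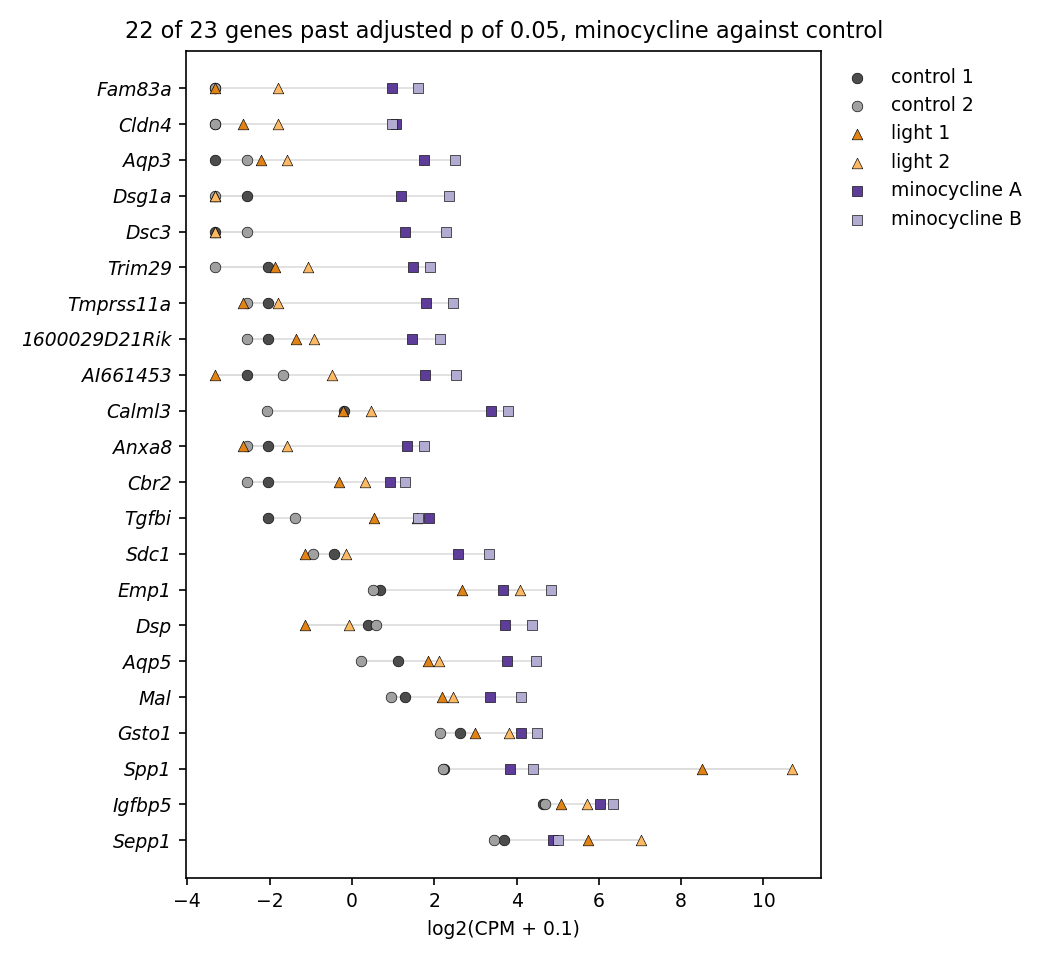
Each row is 1 of 22 of the 23 genes past an adjusted p of 0.05 and each point 1 library, on the scale log2(CPM + 0.1), with genes ordered by fitted log2 fold change from the top. Squares (minocycline A and B) lie to the right of both circles (controls) in every row. The triangles (light without minocycline) lie near the controls for Cldn4, above them for Emp1, Aqp5 and Mal, below them for Dsp, and beyond the minocycline libraries for Spp1 and Sepp1.

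The genes of surface epithelium were the most prominent of these. Of the 44 genes listed as markers of corneal and related stratified epithelium, 34 passed the filter, 10 were called higher and 0 lower, against 0.134% of all tested genes, but 6 of the 10 had 3 counts or fewer in both controls and so entered the test only through the minocycline libraries. In all 44, their summed level was 26.2 and 15.0 CPM in the controls, against 294 CPM in minocycline A and 451 CPM in B. In light-exposed retinas without minocycline it was 25.9 and 43.5 CPM, so the 4 libraries without minocycline lay far below both libraries with it. Both minocycline libraries exceeded both controls for 38 of the 44 genes, beside 15.9% of all tested genes. Of the 34 that passed, 16 had 3 counts or fewer in both controls and passed only through the minocycline libraries. Their median log2 fold change was 4.65, and 3.74 with those 16 at their lower bound, beside 0.02 over all tested genes. The study lists 20 of these 44 genes as higher with minocycline than with light alone, from the same libraries, so the list is not independent evidence of its direction. Krt16, Krt17, Ly6d, Ivl and Krtdap, keratins and products of skin or of cornifying epithelium, stayed at 0 to 2 counts in every library.

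Desmosomes rivet epithelial cells to each other, and desmoplakin, encoded by Dsp (chr13:38151294-38198577, GRCm38), ties them to keratin filaments. Dsp measured 1.21 and 1.41 CPM in the controls and 13.1 and 20.8 CPM in minocycline A and B. The groups did not overlap, and the log2 fold change was 3.73 ± 0.35 (SE; adjusted p = 0.0356, edgeR). Light-exposed retinas without minocycline had 0.351 and 0.855 CPM, below the controls. Desmocollin 3 (Dsc3), a cadherin of the same junction, had 0 and 1 counts in the controls, against 54 in minocycline A and 90 in B, and the desmoglein Dsg1a had 1 and 0 against 50 and 95. Dsc3 was at least 16.8-fold and Dsg1a at least 17.0-fold higher, counted against 3 counts in each control library (adjusted p = 0.0366 and 0.0448, edgeR). Dsg1a has near-identical neighbours in its gene cluster, so its share of their reads is uncertain.

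Aquaporins pass water and glycerol through epithelial membranes, and claudins seal the space between the cells. Aqp3 (chr4:41092724-41098183) had 0 and 1 counts in the controls and 75 and 106 with minocycline, at least 20.9-fold higher (adjusted p = 0.0366, edgeR). Aqp5 (chr15:99591028-99594829), the water channel of corneal and glandular epithelium, rose from 2.06 and 1.06 CPM to 13.5 and 22.2 CPM, a log2 fold change of 3.55 ± 0.40 (adjusted p = 0.0366). Cldn4 was at 0 counts in both controls and at 46 and 35 with minocycline, at least 9.08-fold higher (adjusted p = 0.0366). Both minocycline libraries lay above both controls for all 3 genes, and the controls of Aqp3 and Cldn4, but not of Aqp5, were within the limit of detection.

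Other called genes of the list belong to the differentiation of such epithelia. Tmprss11a, a membrane serine protease, had 2 and 1 counts in the controls and 78 and 101 with minocycline, at least 20.6-fold higher. Calml3, a calmodulin-like protein of epithelial cells, rose from 0.782 and 0.141 CPM to 10.4 and 13.7 CPM (log2 fold change 4.73 ± 0.54). Trim29 rose by at least 14.8-fold, from 2 and 0 counts to 62 and 68. Sdc1, the heparan sulfate proteoglycan syndecan-1, and Anxa8, an annexin, were named after their values were seen. Sdc1 had 0.640 and 0.423 CPM in the controls and 5.83 and 10.0 CPM with minocycline. Anxa8 had 2 and 1 counts against 56 and 62, at least 13.5-fold higher. The adjusted p of each of these 5 genes was 0.0366 in edgeR. Fam83a, 1600029D21Rik and AI661453, which were on no list, had 0 to 3 counts in each control and 43 to 107 in the minocycline libraries, at least 11.4-fold, 16.4-fold and 21.1-fold higher, with the same adjusted p.

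The keratins and metabolic enzyme that define corneal cells had the largest amounts but did not pass the adjusted threshold. Krt12 (chr11:99415664-99422593), the keratin of corneal epithelium, had 36 and 6 counts in the controls and 1798 and 2405 with minocycline, a log2 fold change of 6.15 ± 0.70 (adjusted p = 0.117, edgeR). Krt5, the keratin of basal epithelial cells, had 58 and 2 counts against 1174 and 1360 (4.90 ± 1.13, adjusted p = 0.533). Aldh3a1, the abundant aldehyde dehydrogenase of the cornea, had 21 and 2 against 1039 and 830 (5.81 ± 0.61, adjusted p = 0.0680). In these 3 genes, named after their values were seen, the groups were far apart, yet control 1 held 6.0, 29.0 and 10.5 times the counts of control 2. That spread between the controls entered the test. Trp63, the transcription factor of stratified epithelia, had 2 counts in each control and 34 and 31 with minocycline, at least 7.35-fold higher (adjusted p = 0.0780).

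A pair of salivary-type proline-rich protein genes, Prpmp5 and Prb1, stood out among the glandular markers, of which 4 of 11 passed the filter and 0 were called. Prpmp5 had 0 and 3 counts in the controls and 56 and 226 with minocycline, and Prb1 had 0 and 12 against 82 and 284. Neither passed the adjusted threshold (adjusted p = 0.301 and 0.565, edgeR), and both belong to a family with near-identical members. Agr2, a secretory disulfide isomerase, had 0.355 and 0.704 CPM against 1.09 and 0.954 CPM. Pigr, the receptor that carries antibodies across epithelia, lay the other way without overlap, at 0.995 and 1.27 against 0.914 and 0.583 CPM (-0.53, adjusted p = 0.757, edgeR). The glandular genes Tff1 and Bpifa1 and the keratin Krt7 had 0 to 3 counts in every library.

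Genes of pigment cells were also higher in both minocycline libraries, but unevenly between them. All 15 listed genes passed the filter, and their summed level was 67.6 and 135 CPM in the controls, 89.7 and 119 CPM in light-exposed retinas without minocycline, and 374 and 1522 CPM in minocycline A and B. Their median log2 fold change was 2.92, 12 of the 15 lay above both controls in both minocycline libraries (15.9% of all tested genes did), and 9 had an unadjusted p under 0.05 (5.39% of all in this direction), but 0 were called. The level in minocycline B was above that in A for 14 of the 15 genes, with a median ratio of 3.96, where the median ratio over all tested genes was 0.999. Control 2 exceeded control 1 in the same direction, with a median ratio of 2.39. The uneven pairs gave wide errors, and 9 of these genes passed the adjusted threshold without minocycline A and 6 without minocycline B.

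Tyr encodes tyrosinase, the first enzyme of melanin synthesis, Tyrp1 and Dct its 2 relatives, and Pmel the scaffold on which melanin is laid down. These 4 are named after their values were seen. Tyr had 0.427 and 1.83 CPM in the controls and 10.3 and 48.6 CPM with minocycline, a log2 fold change of 4.73 ± 1.18 (adjusted p = 0.516, edgeR). Dct (chr14:118012790-118052246) had 11.1 and 41.4 against 149 and 654 CPM (3.97 ± 1.30, adjusted p = 0.729). Pmel had 0.924 and 12.96 against 72.1 and 340.4 CPM (4.93 ± 1.87, adjusted p = 0.742). In all 3 the lower minocycline library was still above the higher control, by 3.59 to 5.63 times. The melanosome transporters Slc45a2 and Oca2 followed with 2.74 and 7.74 CPM and 4.44 and 13.4 CPM in minocycline A and B, against 0 to 0.775 CPM and 0.853 to 2.39 CPM in the controls. Mitf, the transcription factor that switches these genes on and that is also made elsewhere in the eye, differed less, with 11.6 and 12.1 CPM against 14.9 and 28.7 CPM (log2 fold change 0.92 ± 0.31, adjusted p = 0.512).

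The start sites of melanin genes carry a short element bound by MITF, the M-box, with the core CATGTG. In the promoters given by RefSeq for GRCm38.p6, from 250 bases before to 50 bases after a start, the core occurred on either strand in 6 of the 9 pigment cell genes with an entry, and in 15.9% of all 27025 genes. It is shown for the enzymes Tyr and Tyrp1, which share bases around it, in capitals on the strand of the gene.
Tyr, chr7:87493508-87493553, minus strand: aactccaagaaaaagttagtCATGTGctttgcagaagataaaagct
Tyrp1, chr4:80834147-80834192, plus strand: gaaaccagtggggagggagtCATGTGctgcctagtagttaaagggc
A match is a description of the letters and was not tested against the expression values.

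Smooth muscle genes, like the pigment genes, had higher levels in minocycline B than in A. Their summed level was 218 and 268 CPM in the controls, against 287 CPM in minocycline A and 697 CPM in B, against 180.1 and 164 CPM in light-exposed retinas without minocycline. Of the 14 listed genes 12 passed the filter and 0 were called. All 12 were higher in minocycline B than in A, with a median ratio of 2.94, and 10 of the 14 lay above both controls, beside 15.9% of all tested genes. Myl9, a myosin light chain, had 2.91 and 3.17 CPM in the controls and 9.97 and 31.8 CPM with minocycline (log2 fold change 2.82 ± 0.60, adjusted p = 0.285, edgeR). Tpm2, a tropomyosin, had 0.711 and 1.69 against 4.88 and 19.1 CPM, and Cnn1, the actin-binding calponin, had 0 and 3 counts against 24 and 50. Acta2, the smooth muscle actin, named after its values were seen, had 1.21 and 5.56 CPM against 23.6 and 136 CPM. Myl9, Tpm2, Cnn1 and Acta2 each had 5.56 CPM or less in the controls, so most of the summed control level came from other listed genes. The CArG box, the element of serum response factor at contractile genes, occurred in the RefSeq promoter of 1 of the 10 smooth muscle genes with an entry, Myl9, and in 1.81% of all genes.

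Pericytes, the contractile cells of retinal capillaries, share part of this programme. Their 8 listed genes summed to 970.2 and 870.4 CPM in the controls and 926 and 960.4 CPM with minocycline. All 7 that passed the filter were fitted above 0, with a median log2 fold change of 0.58, 4 of them did not overlap between the groups (15.9% of all tested genes in this direction), 3 had an unadjusted p under 0.05 (5.39% of all) and 0 were called, and the summed levels overlapped. The 4 without overlap each had at most 26.03 CPM in these libraries, so the sum mostly reflects other listed members. Rgs5, a regulator of G protein signalling, had 17.2 and 15.3 against 26.03 and 21.2 CPM (adjusted p = 0.496, edgeR). Notch3 and Kcnj8 had the largest differences at log2 fold changes of 1.22 ± 0.33 and 1.35 ± 0.47 (adjusted p = 0.321 and 0.534, edgeR). Endothelial genes had a median log2 fold change of 0.63, with all 13 fitted above 0 and 0 called, and 303 and 228 CPM in minocycline A and B against 226 and 194 CPM. In both minocycline libraries 9 of the 13 lay above both controls, beside 15.9% of all tested genes. With light alone the sums were 294.5 and 381.6 CPM.

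Stromal genes of fibroblasts and keratocytes split within the list. Fbln1, the basement membrane protein fibulin-1, had 9 and 6 counts in the controls and 169 and 529 with minocycline (log2 fold change 5.08 ± 0.85, adjusted p = 0.169, edgeR). Lum, the proteoglycan lumican of the corneal stroma and sclera, had 1 and 3 against 51 and 223, at least 33.1-fold higher (adjusted p = 0.282). Islr had 0.924 and 2.11 CPM against 7.27 and 26.3 CPM. Kera, the proteoglycan that marks keratocytes, had 0 or 1 counts in every library, and Mfap5 had 0 to 2. Over the 22 genes the sums were 189.9 and 203 CPM in the controls and 236 and 359.6 CPM with minocycline. The median of the 19 that passed was 0.99, and 0 were called.

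Skeletal muscle genes were high in 1 library. Their 12 listed genes summed to 8.89 and 11.4 CPM in the controls, 14.3 CPM in minocycline A and 99.7 CPM in minocycline B. Ckm, the creatine kinase of muscle, had 5 and 9 counts in the controls, 31 in minocycline A and 306 in B, and Atp2a1, its calcium pump, had 38 and 39, then 69 and 413. The 6 that passed the filter were all higher in B, with a median ratio of 9.34, and 0 were called.

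Ciliary epithelium, lens and retinal pigment epithelium complete the neighbouring tissues. Of 7 ciliary genes 6 passed the filter, with a median log2 fold change of 1.26 and 0 called. The transcription factor Zic1 had 2.20 and 1.62 CPM in the controls and 3.87 and 10.7 CPM with minocycline, and the growth factor Bmp7 had 2.56 and 2.04 against 4.57 and 8.90 CPM (adjusted p = 0.319 and 0.270, edgeR). The lens crystallin Cryaa had 1 and 2 counts in the controls, 237 and 20 with minocycline, and 1863 and 1 in light-exposed retinas without it. Over all 21 lens genes, 7 were above both controls in both minocycline libraries, beside 15.9% of all tested genes, and the sum was 2.20 and 2.75 CPM in the controls, 26.3 and 11.2 CPM with minocycline, and 231.5 and 9.78 CPM with light alone. Bfsp2, a lens filament protein, had 0.640 and 1.13 against 1.96 and 7.89 CPM (adjusted p = 0.462, edgeR). Of 12 genes of the retinal pigment epithelium that passed the filter, 10 were fitted below 0 and 2 above, with 0 called. The 13 listed genes summed to 236 and 467 CPM in the controls and 203 and 283 CPM with minocycline, with a median log2 fold change of -0.55. Lrat, which esterifies vitamin A, had 12.4 and 35.1 CPM against 10.6 and 14.1 CPM, and Slc16a8, the lactate transporter of this layer, had 4.91 and 10.4 against 3.57 and 4.03 CPM (log2 fold change -0.96 ± 0.39, adjusted p = 0.664). Best1 had 0 counts in these 4 libraries, and the genes fitted above 0 were Cldn19, with 0.498 and 0.352 against 1.09 and 4.56 CPM, and Krt8, with 0.427 and 2.61 against 1.52 and 2.49 CPM. In bulk RNA, fewer cells of a type and less RNA per cell cannot be told apart, here and in the lists that follow.

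**Figure D2:**
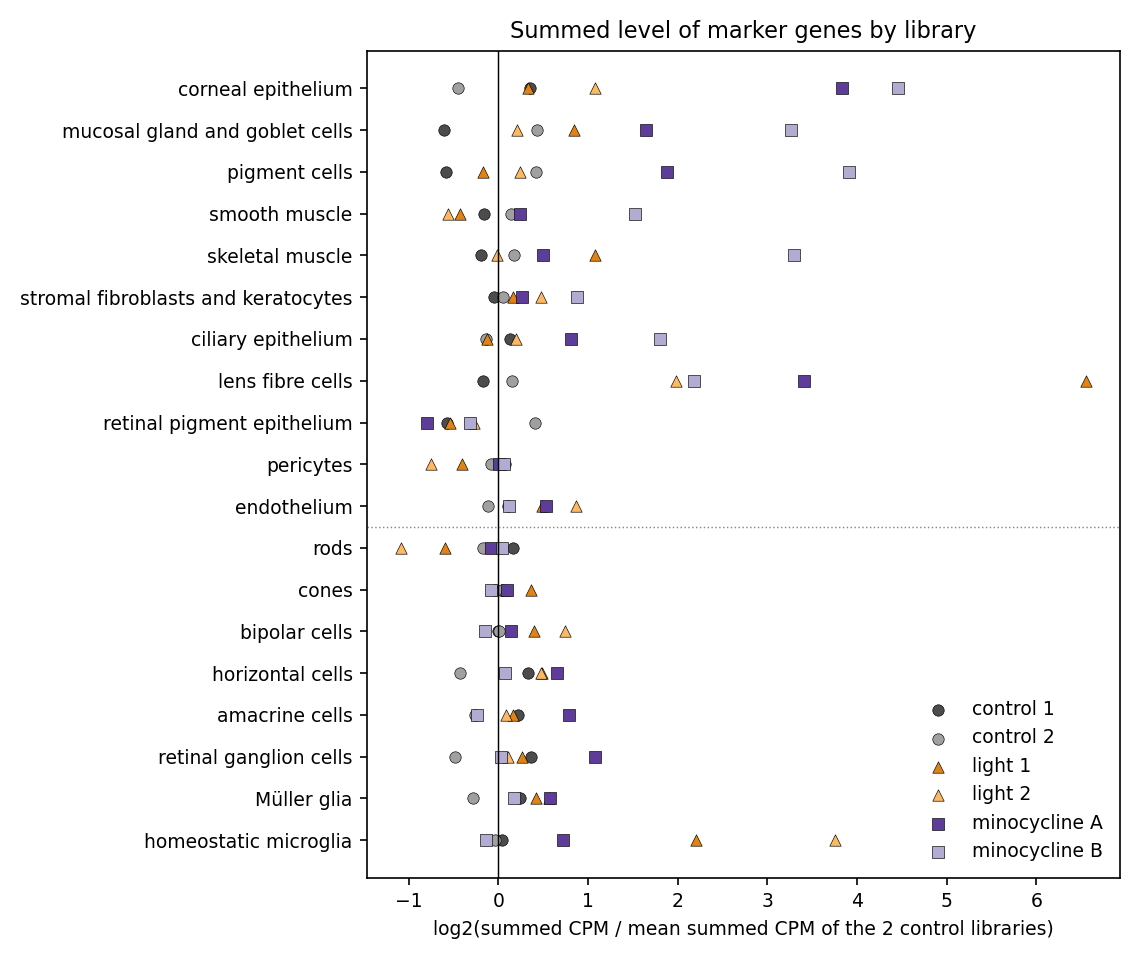
Summed CPM of all listed genes per library, as a log2 ratio against the control mean, for tissues around the neural retina above the dotted line and for cells of the retina below it. The corneal genes lie furthest to the right in both minocycline libraries (294 and 451 CPM against 26.2 and 15.0), pigment and muscle genes lie further right in B than in A, and rods, cones and bipolar cells lie near 0.

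**Figure D3:**
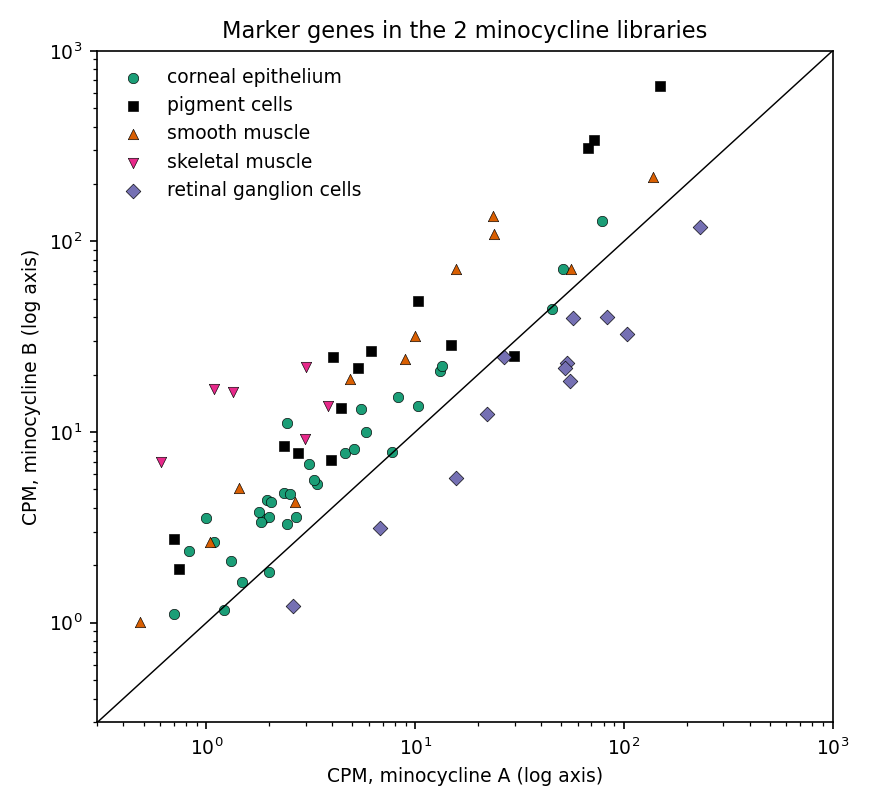
CPM in minocycline B against minocycline A on log axes, 1 point per listed gene that passed the filter, with a line where both libraries are equal. Corneal genes lie a little above the line (median ratio of B to A 1.70), pigment, smooth muscle and skeletal muscle genes further above it (3.96, 2.94 and 9.34), and ganglion cell genes below it (0.464).

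Genes of photoreceptors lay near control. Of the 18 listed rod genes 0 were called or had an unadjusted p under 0.05, against 5.39% and 1.62% of all genes in the 2 directions. They summed to 129100 and 102300 CPM in the controls and 109300 and 119300 CPM with minocycline, so the minocycline libraries lay between the controls. The light-exposed retinas without minocycline had 76240 and 54650 CPM, below all 4. The median log2 fold change was 0.02, with a range of -0.20 to 0.19. Pdc, phosducin, had 3124 and 2633 CPM against 3338 and 3050 CPM, and Rp1, of the outer segment, 4095 and 3937 against 3017 and 3964 CPM. The rod transcription factor Nr2e3 had 1922 and 1354 against 1284 and 1477 CPM.

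Cone and bipolar cell genes were also near control, with medians of 0.15 over 11 genes and 0.26 over 12, and 0 called. The cone channel subunit Cngb3 had 17.0 and 18.9 CPM in the controls and 27.0 and 22.5 CPM with minocycline (log2 fold change 0.51 ± 0.19, adjusted p = 0.596, edgeR). The cone phosphodiesterase Pde6c lay in the other direction, 42.4 and 50.1 against 32.0 and 37.6 CPM (-0.37 ± 0.17, adjusted p = 0.728). For bipolar cells, Vsx1 had 12.6 and 9.86 CPM against 23.8 and 10.7 CPM. None of these differences passed the threshold.

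Inner retinal neurons varied between libraries of 1 group as much as between groups. The 13 ganglion cell genes summed to 432 and 239.9 CPM in control 1 and 2 and to 709.5 and 343 CPM in minocycline A and B. All 12 that passed were fitted above 0, with a median log2 fold change of 0.70, which was 1.13 without minocycline B and -0.06 without minocycline A, and 0 were called. Rbpms, an RNA-binding protein of ganglion cells, did not overlap between the groups, at 17.8 and 12.3 CPM against 26.6 and 24.7 CPM (0.81 ± 0.22, adjusted p = 0.309, edgeR). Nefl, the light neurofilament, had 146 and 76.9 against 231 and 119.7 CPM. The 11 amacrine genes had 439 and 315 CPM against 650.4 and 319 CPM in sum, and horizontal cell genes 65.3 and 38.5 against 81.9 and 54.4 CPM.

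Of the 10 genes of Müller glia 9 were fitted above 0, with a median of 0.41, but 0 were called, and their summed levels overlapped at 3090 and 2146 CPM in the controls and 3913 and 2953 CPM with minocycline. Clu, the secreted chaperone clusterin, had 275 and 245 CPM in the controls and 389 and 332 CPM with minocycline (log2 fold change 0.52 ± 0.17, adjusted p = 0.496, edgeR), and Kcnj10, the potassium channel of their endfeet, had 80.6 and 51.9 against 111 and 73.6 CPM.

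Genes with high levels after light alone were also read in the minocycline libraries. Spp1 (chr5:104435111-104441053), osteopontin, a secreted phosphoprotein of activated phagocytes, had 65 counts in each control, which is 4.62 and 4.58 CPM. It had 14.2 and 20.9 CPM in minocycline A and B, a log2 fold change of 1.97 ± 0.28 (adjusted p = 0.0437, edgeR), and 367 and 1668 CPM in light-exposed retinas without minocycline. It was the gene of the phagocyte lists that passed the adjusted threshold. The adjusted p rose to 0.190 without control 1, 0.278 without control 2 and 0.601 with all 6 libraries in the fit.

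The other 3 genes past the adjusted p with a smaller change were Igfbp5, Sepp1 and Gsto1. Igfbp5 (chr1:72858065-72874865), which binds insulin-like growth factors, had 24.9 and 25.6 CPM in the controls and 65.6 and 81.6 CPM with minocycline (1.59 ± 0.17, adjusted p = 0.0366, edgeR). It had 33.6 and 52.0 CPM in the light-exposed retinas without minocycline, so both minocycline libraries lay above all 4 others. Sepp1 (chr15:3270767-3280510), the selenium carrier selenoprotein P, had 12.9 and 10.8 against 29.6 and 32.2 CPM (1.43 ± 0.19, adjusted p = 0.0366), and 53.1 and 130.0 CPM after light without minocycline. Gsto1, a glutathione transferase, had 6.04 and 4.30 against 17.2 and 22.4 CPM (1.98 ± 0.27, adjusted p = 0.0366), and 7.89 and 13.9 CPM after light without minocycline. Igfbp5 and Gsto1 thus had their highest levels with minocycline, and Sepp1 in the untreated light-exposed retinas. The adjusted p of each of these 3 genes lay between 0.0950 and 0.218 without either control.

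Emp1, Tgfbi and Cbr2, named after their values were seen, were called and were also above control in the light-exposed retinas without minocycline. Emp1, an epithelial membrane protein, had 1.49 and 1.34 CPM in the controls, 12.8 and 28.6 CPM with minocycline and 6.25 and 17.0 CPM with light alone (log2 fold change 3.90 ± 0.45 with minocycline, adjusted p = 0.0366, edgeR). Tgfbi, a matrix protein abundant in cornea, had 2 and 4 counts, 82 and 56, and 23 and 61 in the same order. Cbr2, a carbonyl reductase, had 2 and 1, 41 and 44, and 12 and 24. In CPM, the ranges of the light-exposed and minocycline libraries overlapped for Emp1 but not for Tgfbi (1.34 and 2.90 against 3.57 and 2.97 CPM). Mal, a membrane protein of apical epithelial sorting that also occurs in myelin, rose from 2.35 and 1.83 CPM to 10.1 and 17.2 CPM (2.75 ± 0.36, adjusted p = 0.0366), while the myelin genes Mog and Mobp had 0 or 1 counts everywhere. The summed epithelial list, given above, was also higher in both minocycline libraries, but with light alone it had 25.9 and 43.5 CPM beside 26.2 and 15.0 CPM in the controls, and its part in the difference of these genes was not tested.

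**Figure D4:**
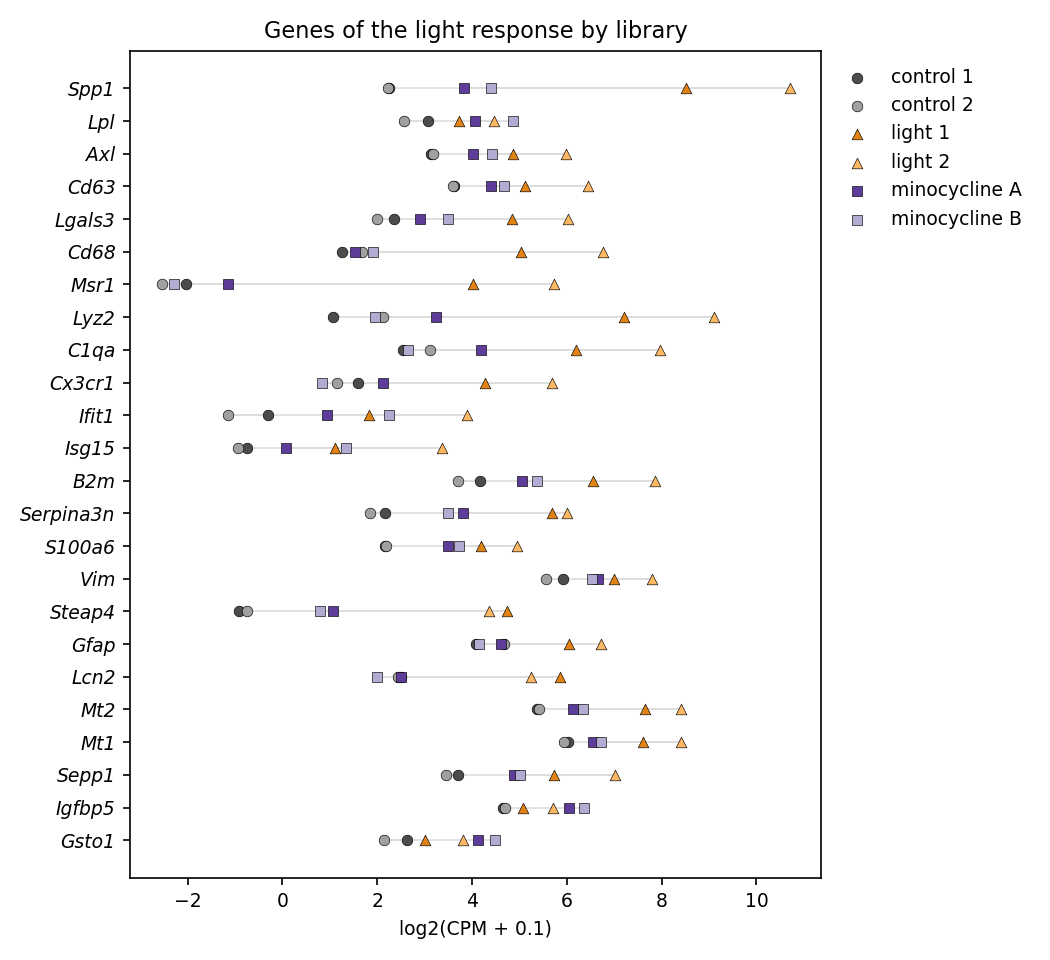
Levels of 24 genes of the light response in all 6 libraries, on the scale log2(CPM + 0.1), 1 point per library. The triangles (light without minocycline) lie to the right for most genes, and the squares (minocycline A and B) lie between controls and light for Spp1, B2m and Steap4, at the controls for Cd68, Gfap and Lcn2, and furthest to the right for Igfbp5 and Gsto1. For Lpl the squares overlap the triangles.

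Homeostatic microglial genes were at control level in 1 minocycline library and above it in the other. The 13 genes summed to 55.7 and 52.8 CPM in the controls and 89.7 and 49.4 CPM in minocycline A and B, against 250.1 and 731 CPM in light-exposed retinas without minocycline. Of the 11 that passed the filter 0 were called or had an unadjusted p under 0.05, and the median log2 fold change was 0.44, from -0.12 to 0.76 over the settings tried. Tmem119, a surface marker of microglia, had 1.42 and 1.27 CPM in the controls and 3.44 and 1.27 CPM with minocycline. P2ry12, their purinergic receptor, had 4.19 and 2.89 against 5.96 and 3.34 CPM.

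Genes of activated microglia were fitted above 0 in all 16 that passed the filter, of 24 listed, with a median of 0.68 beside 0.02 over all genes. The same members had a median of 3.44 between light-exposed and control retinas. The adjusted threshold was passed by Spp1, and 8 had an unadjusted p under 0.05 in this direction, beside 5.39% of all tested genes. Lpl, lipoprotein lipase, had 8.32 and 5.78 CPM in the controls and 16.5 and 29.0 CPM with minocycline (1.73 ± 0.32, adjusted p = 0.118, edgeR). Axl, a receptor for dying cells, had 8.67 and 8.94 against 16.2 and 21.5 CPM, and Cd63, a tetraspanin of late endosomes, 12.2 and 12.04 against 20.9 and 25.3 CPM. With light alone Lpl had 13.1 and 21.8 CPM, which overlapped its minocycline values. Axl had 29.2 and 62.8 CPM and Cd63 34.4 and 86.5 CPM with light alone, above both minocycline libraries. These 3, among those of smallest p, lay above both controls, as did 10 of the 16 tested and 15.9% of all tested genes, but none of the 3 passed. Gpnmb, a glycoprotein of phagocytes and of melanosomes that was named after its values were seen, had 7.68 and 16.2 CPM in the controls, 57.0 and 284 CPM in minocycline A and B, and 136 and 587 CPM with light alone. Its ratio of B to A was 4.97, near the 3.96 of the pigment genes, and the part of pigment cells in its level was not tested.

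The genes that the study measured by PCR or named were also read. Of these, 0 were called. Cd68, the lysosomal marker of phagocytes, had 32 and 44 counts in the controls, 64 and 69 with minocycline, and 557 and 2279 with light alone (log2 fold change 0.30 ± 0.36 with minocycline, adjusted p = 0.803, edgeR). Msr1, a scavenger receptor, had 2 and 1 counts, 8 and 2, and 275 and 1109 in the same order, and did not pass the filter. Wfdc17, a microglial secreted protein, had 2 and 2, 2 and 3, and 41 and 158. Tspo, the mitochondrial translocator protein, had 4.19 and 3.80 CPM in the controls, 5.88 and 9.33 CPM with minocycline, and 11.2 and 23.2 CPM with light alone (0.97 ± 0.33, adjusted p = 0.509). The initiator caspase Casp8 had 11 and 5 counts against 26 and 25 (1.15 ± 0.51, adjusted p = 0.710), and the chemokine Ccl2 had 9 and 2 against 13 and 23 (1.20 ± 0.71, adjusted p = 0.742). C3, the central complement protein, had 19 and 13 against 53 and 10. Il6 and Nos2 had 7 counts or fewer in the 4 libraries and did not pass the filter.

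**Figure D5:**
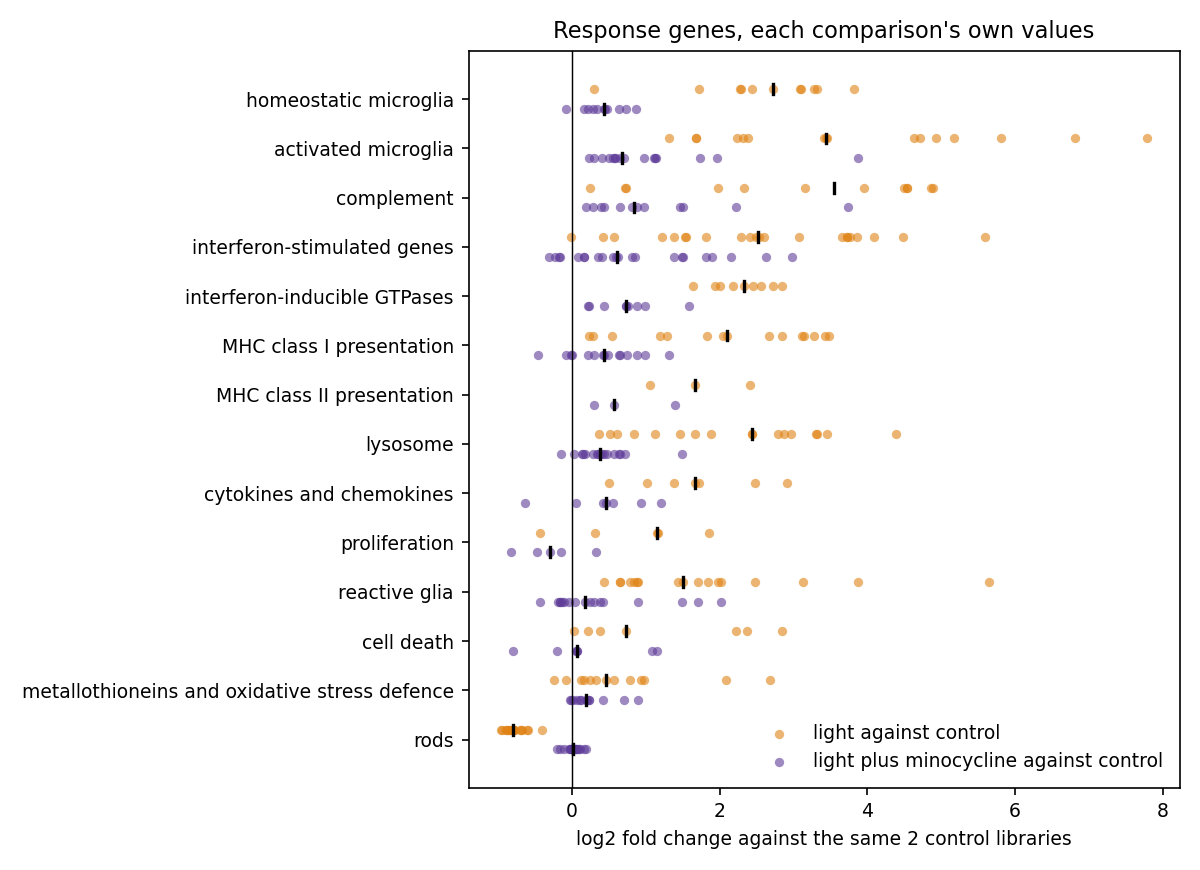
Log2 fold changes against the same 2 control libraries, 1 point per gene that passed the filter, in orange for light and in purple for light plus minocycline, with a black bar at each median. The purple medians lie between -0.29 (proliferation) and 0.85 (complement), and the orange medians of the immune lists lie between 1.67 and 3.55.

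Complement genes had a median of 0.85 over the 12 that passed the filter, with 0 called. C1s and Serping1, a protease of the classical pathway and its inhibitor, had 0.427 and 0.352 against 1.61 and 1.96 CPM and 2.28 and 2.47 against 5.53 and 7.58 CPM (log2 fold changes 2.22 ± 0.47 and 1.51 ± 0.33, adjusted p = 0.155 and 0.175, edgeR). With light alone C1s had 1.87 and 2.09 CPM, overlapping its minocycline values, and Serping1 17.4 and 24.7 CPM, above them. C2, the classical pathway protease beside the MHC genes, had 0.711 and 1.48 CPM in the controls and 4.70 and 24.1 CPM in minocycline A and B, but 1.40 and 2.23 CPM with light alone. Both minocycline libraries lay above the other 4, B more than A, as for the pigment genes. The part of that tissue in its level was not tested.

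Interferon-stimulated genes were fitted above 0 for 18 of the 22 that passed the filter, of 31 listed, with a median of 0.61 and 0 called. Ifit1, which binds viral RNA, had 0.711 and 0.352 CPM in the controls and 1.83 and 4.66 CPM with minocycline (2.63 ± 0.61, adjusted p = 0.199, edgeR), and 3.45 and 14.7 CPM with light alone. Ifit3 had 1.21 and 0.845 against 2.74 and 4.34 CPM, Bst2, the tetherin of budding virus, 1.28 and 1.90 against 3.26 and 5.56 CPM, and Ifitm3 3.91 and 1.97 against 5.92 and 10.1 CPM. In each of these 4, those of smallest p, minocycline B was above A and both were above the controls, but none passed. Of the 22, 12 lay above both controls and 2 below both, beside 15.9% and 24% of all tested genes. The element through which interferons act, with the core GAAANNGAAA, occurred on either strand in the RefSeq promoter of 13 of the 21 listed genes with an entry and in 3.99% of all genes. It is shown in capitals on the strand of the gene for Ifit1 and Bst2; in the former it lies on the opposite strand and reads TTTC, and in the latter 2 matches overlap.
Ifit1, chr19:34640765-34640833, plus strand: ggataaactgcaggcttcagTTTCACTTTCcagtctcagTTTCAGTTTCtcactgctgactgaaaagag
Bst2, chr8:71537567-71537622, minus strand: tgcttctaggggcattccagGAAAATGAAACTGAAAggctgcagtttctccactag
These letters say nothing of whether a factor was bound.

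The GTPases induced by interferon gamma had a median of 0.74 over the 9 that passed, all above 0, with 0 called. Irgm1 had 2.20 and 1.69 CPM in the controls and 4.48 and 6.89 CPM with minocycline (1.58 ± 0.37, adjusted p = 0.211, edgeR). In antigen presentation, B2m, the light chain of MHC class I, had 17.8 and 12.9 against 32.9 and 41.3 CPM (1.32 ± 0.21, adjusted p = 0.0780), with 93.3 and 234 CPM in light-exposed retinas without minocycline. The median of the 15 class I genes that passed was 0.43. Cd74, the invariant chain of class II, had 4 and 7 counts against 21 and 21. Lymphocyte genes Cd3e and Ms4a1 had 0 counts in every library, and the neutrophil gene Mpo 0 or 1.

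Lysosomal genes had a median of 0.39, with 16 of 17 above 0 and 0 called. Lipa, the acid lipase, had 6.54 and 6.55 CPM in the controls and 14.0 and 21.7 CPM with minocycline (1.49 ± 0.27, adjusted p = 0.104, edgeR), and Ctsl, a cathepsin, 122 and 89.8 against 173 and 165 CPM (0.72 ± 0.19, adjusted p = 0.287). Cytokines and chemokines had a median of 0.46 (-0.17 to 0.77 over the settings) over 7 of 18 genes, none with an unadjusted p under 0.05. Cell division genes had a median of -0.29 over the 5 of 14 that passed the filter, whereas over all 14, most of them at low counts, 6 lay above both controls and 1 below, beside 15.9% and 24% of all tested genes. The median turned sign between settings, from -0.51 to 0.36. Mki67, a marker of cycling cells, had 0.355 and 0.141 against 0.522 and 0.477 CPM. The 1 below was the cyclin gene Ccna2, with 87.1 and 118 CPM in the controls and 64.6 and 78.7 CPM with minocycline (-0.47 ± 0.19, adjusted p = 0.689).

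Of 17 reactive glia genes that passed the filter 0 were called, with 10 fitted above 0, 7 below and a median of 0.18. Serpina3n, a protease inhibitor of reactive astrocytes and Müller cells, had 4.41 and 3.52 CPM in the controls and 13.9 and 11.2 CPM with minocycline (1.71 ± 0.28, adjusted p = 0.0780, edgeR), and 51.8 and 63.9 CPM with light alone. S100a6, a calcium-binding protein, had 4.41 and 4.44 against 11.1 and 13.1 CPM (1.49 ± 0.26, adjusted p = 0.101), and Vim, vimentin, 60.4 and 46.8 against 100.2 and 92.1 CPM (0.89 ± 0.17, adjusted p = 0.121). The metalloreductase Steap4 had 6 and 7 counts against 46 and 31 (2.02 ± 0.46, adjusted p = 0.186). These 4 were those of smallest p and the ones among the 17 that lay above both controls in both minocycline libraries, beside 15.9% of all tested genes, and none passed. Gfap and Lcn2, classical genes of gliosis that were chosen after their values were seen, had 16.8 and 25.6 against 24.4 and 17.7 CPM and 5.55 and 5.35 against 5.53 and 3.87 CPM (log2 fold changes 0.04 ± 0.25 and -0.17 ± 0.32). With light alone they had 65.5 and 105 CPM and 58.0 and 37.5 CPM. Over the 17 genes of the list that passed, the median was 0.18.

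Metallothioneins, small proteins that bind zinc and copper, were read by gene, and 0 were called. Mt2 had 41.4 and 42.4 CPM in the controls and 70.4 and 80.5 CPM with minocycline (0.89 ± 0.16, adjusted p = 0.0966, edgeR), and Mt1 64.8 and 61.0 against 94.1 and 105 CPM (0.70 ± 0.15, adjusted p = 0.170). Mt3 had 8.32 and 5.85 against 9.18 and 5.56 CPM. The 13 genes of metal and oxidative defence had a median of 0.20. Cell death genes had a median of 0.06 over 7 of 14, where Tnfrsf1a, a receptor of tumour necrosis factor, had 3.13 and 3.94 against 7.62 and 6.89 CPM (1.08 ± 0.30, adjusted p = 0.345).

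Genes of handling and time of day were also read. Early response genes had a median of -0.03, but their sum was 2009 and 849 CPM in control 1 and 2 and 878 and 1702 CPM in minocycline A and B, and all 14 were higher in minocycline B than in A. Fos had 360 and 104 CPM in the controls and 101 and 189.5 CPM with minocycline. Clock genes had a median of -0.13 over 15, glucocorticoid targets 0.23 over 9, targets of ATF4 0.21 over 13 and housekeeping genes 0.18 over 10, with 0 called in each.

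No gene was called lower. By unadjusted p, and named after their values were seen, Gm8221 led, a predicted gene with 62 and 144 counts in the controls and 0 and 5 with minocycline, and 62 and 73 with light alone (log2 fold change -5.78 ± 0.89, adjusted p = 0.103, edgeR). Both minocycline libraries lay far below the other 4. The 4 next were the long RNA Ftx (76.4 and 62.8 against 36.8 and 45.0 CPM), Ptpn20 (4.12 and 4.44 against 1.05 and 1.75 CPM), Tgm4 (37.7 and 46.3 against 18.0 and 26.6 CPM) and Mfsd2b (25.7 and 29.2 against 14.4 and 17.3 CPM), with adjusted p-values of 0.237 to 0.270. Malat1, a nuclear RNA and one of the most abundant transcripts, had 6034 and 8226 CPM in the controls, 3871 and 4459 CPM with minocycline and 4956 and 5667 CPM with light alone (-0.73 ± 0.22, adjusted p = 0.401). Under other settings Malat1 passed the adjusted threshold in DESeq2 with and without shrinkage. Gm8221, Ftx, Ptpn20 and Tgm4 passed it in edgeR without the filter. Xist had a fitted log2 fold change of -11.0 from control 1 alone (adjusted p = 0.742).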

How the data were processed

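Retinal RNA was sequenced in 6 libraries, 2 per group, with stranded mRNA libraries and single reads. The authors ran the RNA Express workflow, in which STAR aligned the reads to mm10 (GRCm38) and assigned them to genes. Versions, the annotation and the use of strand in counting are not given in the sources used here. The deposited values are whole-number counts per gene without normalization, although the data statement calls them normalized. The number of value columns not used was 0. The minocycline columns share their header, replicate number included, so neither column can be tied to its sample.

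Each pair of groups had its own fit in R 4.3.3 by edgeR 4.0.16 (a robust quasi-likelihood F test after filterByExpr and TMM, with Benjamini-Hochberg adjustment), with the study's fold cutoff. SE is the log2 fold change over the square root of F. A group at 3 counts or fewer in each library counts as undetected, and folds against it are bounds. DESeq2 1.42.0 was an alternative. On simulated counts, 198 of 200 changed genes (99%) and 2 unchanged genes were called, of 14048. That share belongs to the simulation, and whether it holds for these libraries was not tested. In the data, 19 of the 187 genes fitted at least 4-fold higher were called. Gene positions (23246 matched) and promoters are RefSeq's, GRCm38.p6.

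The 42 marker lists, the members and the tests were chosen with earlier results of these data known. Genes named are the 10 called genes with the largest non-overlapping change in each direction, the 10 of smallest p in each direction past the adjusted p with a smaller change, up to 4 of smallest p per list, 9 genes the study names, and list markers at 3 counts or fewer everywhere. Other genes were named after their values were seen: Sdc1, Anxa8, Emp1, Tgfbi, Cbr2, Krt12, Krt5, Aldh3a1, Trp63, Tyr, Tyrp1, Dct, Pmel, Acta2, Gpnmb, Gfap, Lcn2, Isg15, Lyz2, C1qa, Cx3cr1, Gm8221, Ftx, Ptpn20, Tgm4, Mfsd2b, Malat1, Mitf, Krt8, Mki67 and Mt3. The red blood cell globins Hba-a1, Hba-a2, Hbb-b1 and Hbb-b2 were at 0 counts everywhere, and the 1 gene of that list that passed the filter was not called. Results of 2 genes are not reported here.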

Additional observations from a re-analysis of the deposited data

How the results depend on the processing

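No paired analysis was possible because the shared header does not tell the replicates of the minocycline libraries apart. The counts of genes depended on the setting, and the cause was not tested unless named. With 19 called higher and 23 past the adjusted p alone, DESeq2 without shrinkage gave 100 and 164, DESeq2 with shrunken fold changes 0 and 125, no filter 96 and 183, at least 10 counts in every library, which drops 15 of the 19, 2 and 3, all 6 libraries in one fit 0 and 0, and an adjusted p under 0.01 0 and 0, since the smallest was 0.0356. Leaving out 1 library gave 3 to 276 called and 3 to 438 past the adjusted p. In these fits the lone library is assumed to vary like the other group. Other size factors and edgeR without robust estimation gave 20 to 27 called, with all 19 among them. Towards lower levels, with 0 and 0, DESeq2 without shrinkage gave 1 and 4, shrunken DESeq2 1 past the adjusted p, no filter 1 and 4, and leaving out 1 library 0 to 4 called and 0 to 42 past the adjusted p. The 4 Y-linked genes turned to higher without control 2, as control 1 has almost no counts of them: leaving out 1 library moved Kdm5d between -1.27 and 8.68, Eif2s3y between -1.10 and 9.41, Uty between -1.03 and 8.11 and Ddx3y between -1.01 and 9.50 on the log2 scale. The median of the corneal list stayed above 0, from 0.63 with shrinkage to 5.72 without control 1, and that of rods lay between -0.12 and 0.16. Of 40 lists without the X and Y genes, the medians of 14 turned sign under a setting: glandular, retinal pigment epithelial, lens, red blood cell, lymphocyte, rod, bipolar, horizontal, amacrine, ganglion cell, homeostatic microglial, cytokine, cell division and early response genes. No normalization moved the median of all genes by over 0.1. Depth limits genes at the floor, whose folds are bounds.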
